A study of Ovis aries with 15 samples.

Results

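Hemidesmosome and basement membrane genes were described in RNA-seq libraries of sheep ruminal epithelium, a stratified tissue whose basal cells rest on a basement membrane. The members were 9 genes, COL17A1, COL7A1, LAMA3, LAMB3, ITGA6, ITGB4, PLEC, DST and CD151, of 19304 genes listed in each deposited table. They were picked by name for anchorage of the basal layer, with earlier results of these data known. Their counts and medians are therefore descriptions. Of the 9, 7 were listed under their own name, and PLEC and DST were listed by a gene number that the RefSeq table pairs with these symbols. All animals were male Hu lambs aged 6 months, and all samples were frozen ruminal epithelium extracted with Trizol. The 15 libraries carried the labels HP, HG and CON, with 5 libraries in each group. From the series title, HP was read as a high-grain diet in pellets, HG as the same kind of diet without pelleting and CON as the control. No source used here gives the composition of the diets or how long they were fed. Since separate animals are not stated for the libraries, p-values measure the spread between these libraries, which may be technical.

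A hemidesmosome is the junction that fixes a basal keratinocyte to the basement membrane under it. Inside the cell, plectin (PLEC) and dystonin (DST) tie keratin filaments to the junction. The integrin α6β4 (ITGA6, ITGB4) and the transmembrane collagen XVII (COL17A1) cross the membrane with the tetraspanin CD151, and bind laminin-332, to which LAMA3 and LAMB3 contribute chains. Collagen VII (COL7A1) forms the anchoring fibrils below. Loss of these proteins causes blistering of skin in humans, and in the rumen the same basal layer supplies the cells that renew the absorptive papillae.

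Values are FPKM, fragment counts scaled to transcript length and to library size, so that levels can be compared between genes. All 9 members had higher mean FPKM in HP and in HG than in CON, and all 9 passed the filter on low values (1 FPKM or more in 5 or more libraries). In a limma test of 13084 genes, 0 members passed an adjusted p of 0.05 upward in HP against CON, where 0.00764% of all genes did, and 0 in HG against CON, where 0% did. The ratio of mean FPKM to CON ran from 1.33 (ITGA6) to 2.21 (PLEC) in HP and from 1.35 (ITGA6) to 2.30 (PLEC) in HG. The mean of HP and HG against CON had 7 members above CON at that threshold, as had 8.05% of all genes. No member passed in HP against HG.

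Some libraries stood apart. The median-ratio factor, the typical ratio of a library's genes to their mean over libraries, was 1.01 to 1.12 in HP, 1.03 to 1.11 in HG and 0.687 to 1.05 in CON, where CON1 and CON3 had 0.849 and 0.687. Over all genes tested the median log2 difference was therefore 0.18 in HP against CON and 0.17 in HG against CON, and median-ratio scaling brought both to -0.01. CON1 and CON3 also had the most genes listed at 0 FPKM, with 1850 and 2269, against 1048 to 1589 in the other libraries. What set CON1 and CON3 apart was not tested. The summed FPKM of 11 smooth muscle markers was 196 to 3289 in HP, 222 to 5547 in HG and 190.2 to 1701 in CON. HP5, HG2, HG3 and CON1 were the libraries over 1000. In each group 8 of 9 basal keratinocyte markers averaged 1 FPKM or more, among them KRT5, KRT14, KRT15 and TP63. Schwann cells also carry α6β4. Of 6 Schwann cell markers only PMP22 averaged 1 FPKM or more in a group, and the part of these cells in the members' values was not tested.

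COL17A1 (gene24841) was the most abundant member. It had 85.8, 59.4, 102, 86.9 and 110.3 FPKM in HP1 to HP5, 93, 68.3, 85.1, 92.5 and 102 FPKM in HG1 to HG5, and 37.2, 73.7, 36.8, 63.4 and 50.9 FPKM in CON1 to CON5. CON1 and CON3 were lowest, CON2 lay above the lowest library of both high-grain diets and CON4 above HP2. The means were 88.9 ± 19.5 in HP, 88.3 ± 12.8 in HG and 52.4 ± 16.2 in CON (SD, n = 5 each). On the log2(FPKM + 1) scale, which understates the change of low genes, COL17A1 was 0.78 ± 0.207 (SE) above CON in HP and 0.78 ± 0.207 above CON in HG (limma adjusted p 0.0991 and 0.0779). Without CON1 and CON3 it was 0.48 above CON in HP and 0.49 in HG. In bulk tissue, more basal cells and more RNA in each basal cell cannot be told apart.

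COL7A1 (gene22555), the collagen of anchoring fibrils, had 44.5, 30.5, 48.8, 43.8 and 51.4 FPKM in HP1 to HP5, 35.3, 29.7, 50.3, 45.6 and 33.6 in HG1 to HG5, and 13.1, 29.5, 6.03, 25 and 30.6 in CON1 to CON5. Only CON5 lay above the lowest libraries of HP (HP2) and HG (HG2), with CON2 just under them, while CON1 and CON3 lay far below. COL7A1 differed from CON by 1.22 ± 0.335 in HP and 1.04 ± 0.335 in HG (limma adjusted p 0.0991 and 0.0873). Without CON1 and CON3 it was 0.59 in HP and 0.42 in HG.

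**Figure D1:**
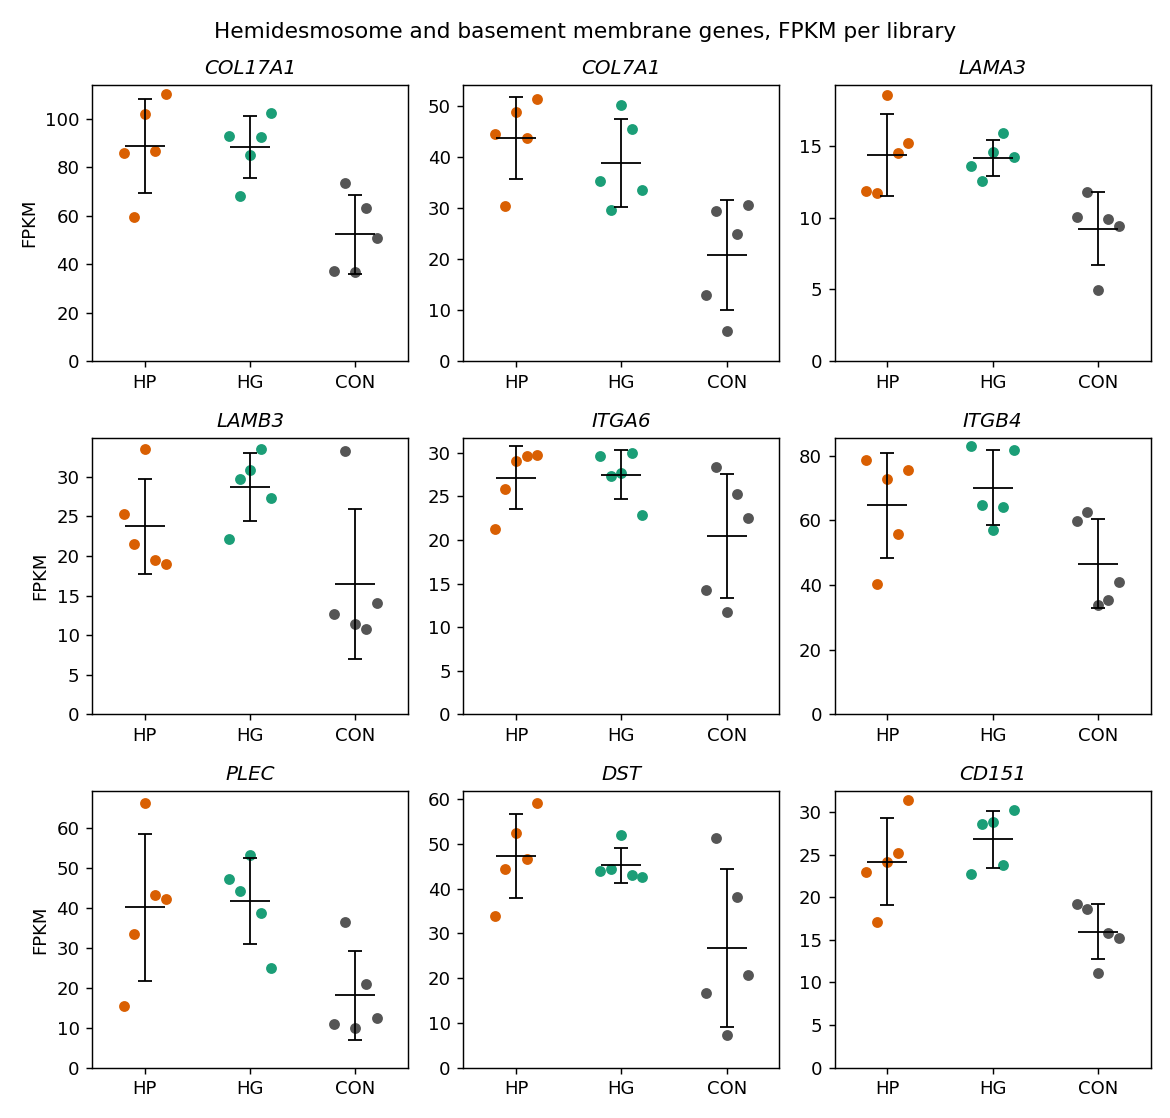
FPKM of the 9 members in each library (points), with the mean and SD of the 5 libraries of HP, HG and CON (bars). Every mean of HP and of HG lies above that of CON, and LAMA3 and CD151 are the members whose HG libraries lie above every CON library.

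The laminin chain genes split by overlap. LAMA3 (gene25226), the α3 chain, was 11.8, 11.7, 18.6, 14.5 and 15.2 FPKM in HP, 13.6, 12.5, 14.5, 15.9 and 14.2 in HG, and 10.1, 11.8, 4.98, 9.93 and 9.43 in CON, in the order of the library numbers. Each HG library lay above each CON library, and HP overlapped CON in HP2, at 11.7 against 11.8 in CON2. The log2 difference was 0.61 ± 0.184 in HP and 0.61 ± 0.184 in HG (limma adjusted p 0.0991 and 0.082). Without CON1 and CON3 it was 0.42 and 0.41.

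LAMB3 (gene16384), the β3 chain, was 25.3, 21.5, 33.6, 19.5 and 19 FPKM in HP, 22.1, 29.7, 30.9, 33.5 and 27.3 in HG, and 12.7, 33.2, 11.4, 10.7 and 14.1 in CON. One library, CON2, reached the top of the high-grain libraries, while the other 4 CON libraries lay below all 10 of them. LAMB3 differed from CON by 0.60 ± 0.25 in HP and 0.88 ± 0.25 in HG (limma adjusted p 0.141 and 0.0779). Without CON1 and CON3 these differences were 0.41 and 0.69. Without CON2 they were 0.88 and 1.16 (limma adjusted p 0.0202 and 0.0127). The fit without CON2 called 7 of 9 members higher in HP and 9 in HG, beside 1840 and 1834 of 12999 genes. LAMA3 lay below LAMB3 in 15 of 15 libraries.

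The integrin subunit genes had the smallest differences in HP against CON, while in HG against CON LAMA3 lay between them. ITGA6 (gene3974) was 21.3, 25.9, 29, 29.7 and 29.7 FPKM in HP, 29.6, 27.4, 27.7, 29.9 and 22.9 in HG, and 14.2, 28.3, 11.8, 25.3 and 22.5 in CON. CON2, CON4 and CON5 fell within the range of the high-grain libraries. The log2 difference was 0.45 ± 0.201 in HP and 0.48 ± 0.201 in HG (limma adjusted p 0.16 and 0.146), and 0.09 and 0.11 without CON1 and CON3. In both comparisons ITGA6 was nearest to the median of all genes tested.

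ITGB4 (gene15488), the β4 subunit with the long cytoplasmic tail that binds plectin, was 78.8, 40.3, 72.8, 55.7 and 75.6 FPKM in HP, 82.9, 64.7, 57, 64.1 and 81.7 in HG, and 59.9, 62.7, 33.9, 35.3 and 40.9 in CON. Here CON1 and CON2 were the higher CON libraries, and both lay within the range of HP and HG. ITGB4 differed from CON by 0.47 ± 0.213 in HP and 0.61 ± 0.213 in HG (limma adjusted p 0.166 and 0.099). Without CON1 and CON3 the differences hardly moved, at 0.47 and 0.62. CD151 (gene24540), the tetraspanin that associates with laminin-binding integrins, was 23, 17.1, 24.1, 25.2 and 31.4 FPKM in HP, 22.8, 28.6, 28.8, 23.7 and 30.2 in HG, and 19.1, 18.6, 11.1, 15.8 and 15.2 in CON. All HG libraries lay above all CON libraries, while HP2 lay below CON1 and CON2. Libraries did not overlap in this direction for 4.44% of all genes in HG against CON and for 2 of the 9 members (LAMA3 and CD151). In HP against CON they did not overlap for 2.69% of all genes and for 0 members. CD151 had a log2 difference of 0.57 ± 0.168 in HP and 0.73 ± 0.168 in HG (limma adjusted p 0.0991 and 0.0779). Without CON1 and CON3 it was 0.50 and 0.66.

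The plakin genes had log2 differences of 1.00 or more in both diets, with a wide spread over the CON libraries. Both encode very long proteins in several isoforms, and gene-level FPKM cannot tell the epithelial isoforms from those of muscle. PLEC (gene13046) was 15.5, 33.5, 66.4, 43.4 and 42.2 FPKM in HP, 47.2, 44.3, 53.4, 38.9 and 25 in HG, and 11.1, 36.5, 9.91, 21 and 12.4 in CON. HP1, HP2 and HG5 lay below CON2. CON1, CON3 and CON5 lay below all high-grain libraries, and CON4 lay below all of them except HP1. PLEC differed from CON by 1.13 ± 0.371 in HP and 1.28 ± 0.371 in HG (limma adjusted p 0.102 and 0.0804). Without CON1 and CON3 the differences were 0.75 and 0.90.

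DST (gene22755), whose epithelial isoform is the bullous pemphigoid antigen of the inner plaque, was 33.9, 44.5, 52.4, 46.6 and 59.1 FPKM in HP, 44, 44.3, 51.9, 43 and 42.6 in HG, and 16.6, 51.2, 7.27, 38.2 and 20.6 in CON. The 5 HG libraries lay close together, and the CON libraries ran from the lowest value of all 15 to nearly the highest of HG. HP1 lay below CON2 and CON4, and HP2, HP4 and every HG library except HG3 also lay below CON2. The log2 difference was 1.05 ± 0.356 in HP and 1.00 ± 0.356 in HG (limma adjusted p 0.106 and 0.104). Without CON1 and CON3 it was 0.43 and 0.38.

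**Figure D2:**
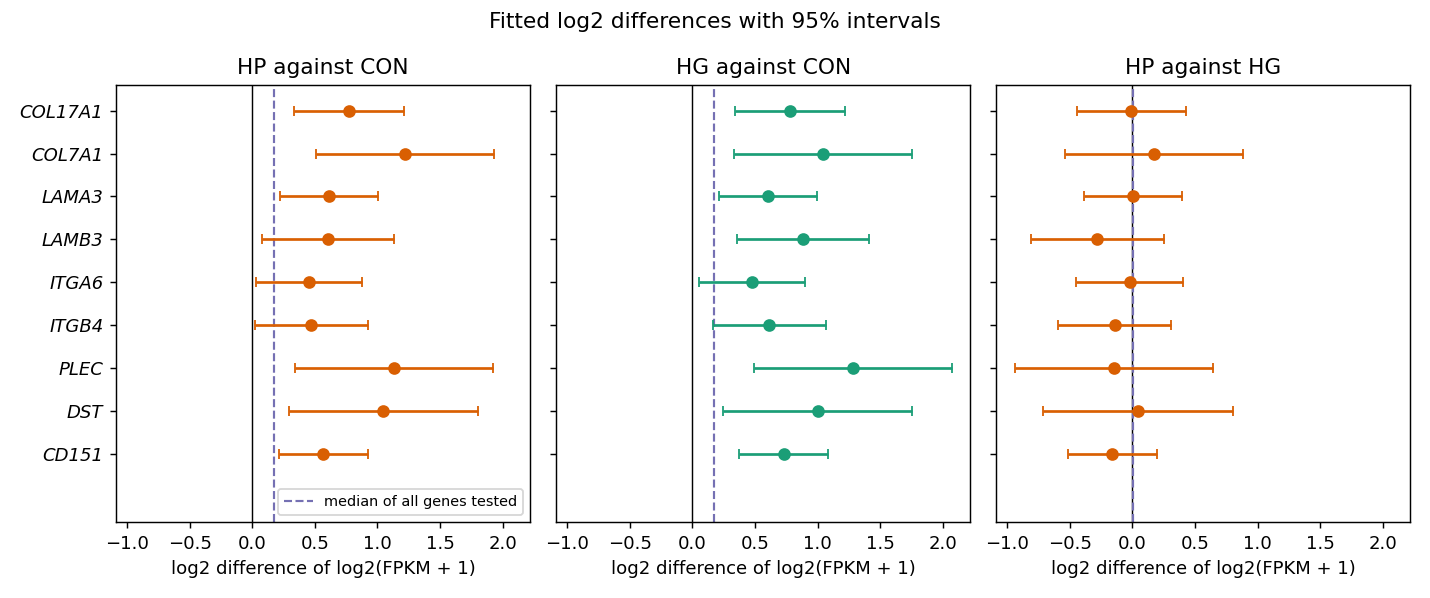
Fitted log2 difference of log2(FPKM + 1) for each member with its 95% interval, in HP against CON, HG against CON and HP against HG, beside the median of all genes tested (dashed line at 0.18, 0.17 and 0.01). All 9 members lie above the dashed line against CON, and all 9 intervals include 0 in HP against HG.

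The members' median log2 difference was 0.61 in HP against CON and 0.78 in HG against CON, beside 0.18 and 0.17 over all genes tested. At an unadjusted p under 0.05, all 9 were higher in HP and all 9 in HG, where 22.6% and 21.8% of all genes were. After median-ratio scaling 6 members were higher in HP and 7 in HG, beside 1558 and 1606 of the 13084 genes, and with the median-ratio factor in the model 0 and 1 were, beside 246 and 349 genes. At an adjusted p under 0.05, 0 of 9 were higher in each, where 0.00764% of all genes in HP and 0% in HG were. These comparisons share the CON libraries, so the members' values in them are not independent. As the members were chosen with earlier results known, their counts beside those of all genes are descriptions.

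Pooling both diets, the mean of HP and HG against CON put 7 of 9 members higher by limma at an adjusted p under 0.05, where 8.05% of all genes were. Over all genes 1053 were higher and 229 lower, against 425 higher and 523 lower after median-ratio scaling. PLEC rose by 1.21 ± 0.321 (SE, adjusted p 0.0394), COL7A1 by 1.13 ± 0.29 (0.0382), DST by 1.02 ± 0.308 (0.0486) and COL17A1 by 0.78 ± 0.179 (0.0382). LAMB3 rose by 0.74 ± 0.216 (0.045), CD151 by 0.65 ± 0.145 (0.0382) and LAMA3 by 0.61 ± 0.159 (0.0392). The integrin subunits did not pass, with ITGB4 at 0.54 ± 0.184 (adjusted p 0.0618) and ITGA6 at 0.46 ± 0.174 (0.0792). The median of the members was 0.74 against 0.17 over all genes.

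These calls sat near the threshold. Leaving out CON1, CON3, CON5, HG1, HG2, HG3, HG4, HP3, HP4 or HP5 singly left 0 members called. Each of those fits called at most 3 of all genes. Leaving out CON2 called all 9 members, where 2927 of 12999 genes were called higher. Without CON1 and CON3 together, 0 of 9 were called and the median of the members was 0.51, beside 0.06 over all genes. Median-ratio scaling called 2 members (COL7A1 at 0.91 and COL17A1 at 0.54), with a median of 0.52 beside -0.01. With that factor in the model 0 were called, as were 0 of all 13084 genes, the median was 0.39 beside 0.00 and ITGA6 was at -0.02. The factor itself differed with diet, with a mean of 0.916 in CON, 1.08 in HP and 1.06 in HG. That fit therefore cannot fully separate the factor from diet. Without the 4 libraries rich in smooth muscle markers the median was 0.69 beside 0.15. In that fit 0 members were called, as was 1 of 12729 genes, with PLEC at 0.97 (limma adjusted p 0.295).

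HP against HG asked whether pelleting changed these genes. No member passed an adjusted p of 0.05, with log2 differences of -0.28 (LAMB3) to 0.17 (COL7A1) and limma adjusted p of 0.999 for all 9. The fit called 0 of 13084 genes (0%), and at an unadjusted p under 0.05 it had 275 genes (2.1%), with 0 members among them. Libraries of HP lay wholly above those of HG for 0.252% of all genes and for 0 members. The 95% intervals bound what these libraries could show. They were -0.45 to 0.43 for COL17A1, -0.39 to 0.39 for LAMA3 and -0.45 to 0.40 for ITGA6. Wider ones were -0.54 to 0.88 for COL7A1, -0.71 to 0.80 for DST and -0.81 to 0.25 for LAMB3, and the widest was -0.94 to 0.64 for PLEC. The sign for LAMA3, COL17A1, ITGA6, ITGB4, PLEC and DST changed with the scaling or the libraries used.

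**Figure D3:**
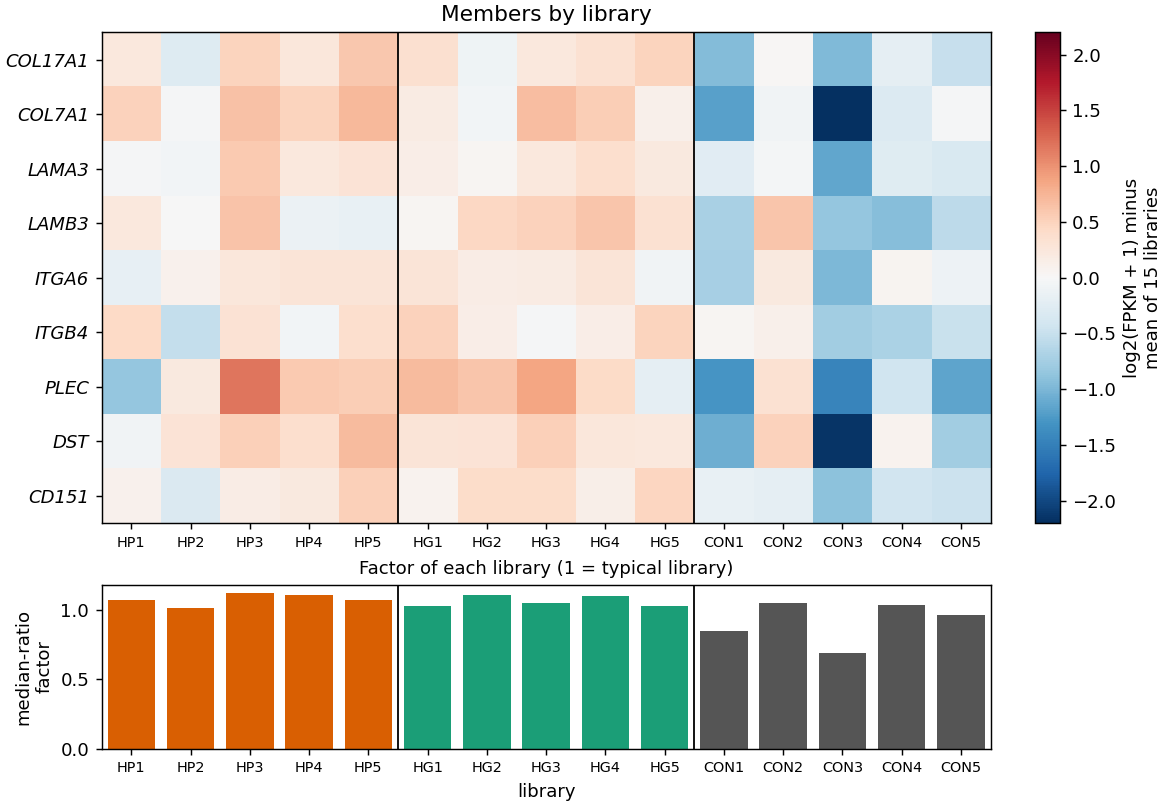
Each member's log2(FPKM + 1) minus its mean over the 15 libraries (upper panel, colour), and the median-ratio factor of each library (lower panel, bars from 0). CON3, with a factor of 0.687, holds the lowest value of 8 of 9 members, and CON2 has the highest CON value of 7.

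Relative to the mean, the members varied most in CON, except CD151, whose coefficient of variation was 21.2% in HP and 20.2% in CON. The SD itself was larger in CON than in HP for 4 of 9 members and larger than in HG for 8 of 9. The coefficient of variation of the members had a median of 21.2% in HP (13.3% to 45.8%), 14.5% in HG (8.52% to 25.8%) and 34.9% in CON (20.2% to 66%). CON3 was the lowest of all 15 libraries for 8 of 9 members, and LAMB3 was lowest in CON4. CON2 was the highest CON library for 7 of 9. In HP, HP5 was highest for 5 members and HP2 lowest for 5. CON3 also had the lowest median-ratio factor. CON1 had the next lowest factor, but it was the lowest CON library for 0 members and the highest for CD151. The part of the factor in the result was not tested beyond the scaled and covariate values above.

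In order of mean FPKM over the 15 libraries, COL17A1 (76.5) stood first, followed by ITGB4 (60.4), DST (39.7), COL7A1 (34.5), PLEC (33.4), ITGA6 (25), LAMB3 (23), CD151 (22.3) and LAMA3 (12.6). Only the steps from ITGB4 to DST and from CD151 to LAMA3 were larger than the SD over libraries of either gene. Across libraries, log2(FPKM + 1) of member pairs correlated with a median Pearson r of 0.75 over 36 pairs, from 0.42 for ITGA6 with ITGB4 to 0.94 for ITGA6 with DST (n = 15 libraries). After median-ratio scaling the median was 0.59 and ITGA6 with ITGB4 stood at -0.05. All pairs share the libraries and their scaling, so these are descriptions.

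Ratios between genes of 1 library do not move with its scaling. ITGA6 was 0.271 to 0.642 of ITGB4 in HP, 0.28 to 0.486 in HG and 0.238 to 0.716 in CON, so that the transcript of the β4 subunit exceeded its α6 partner in 15 of 15 libraries. LAMA3 was 0.468 to 0.801 of LAMB3 in HP, 0.422 to 0.614 in HG and 0.354 to 0.925 in CON. COL7A1 was 0.466 to 0.519 of COL17A1 in HP, 0.328 to 0.591 in HG and 0.164 to 0.601 in CON. The 5 HP libraries were the most alike in this ratio.

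PLEC was 0.197, 0.832, 0.912, 0.78 and 0.558 of ITGB4 in HP1 to HP5, 0.57, 0.685, 0.937, 0.607 and 0.305 in HG1 to HG5, and 0.185, 0.583, 0.292, 0.595 and 0.302 in CON1 to CON5. The groups overlapped. Of 15 exact two-sided permutation tests (5 ratios, 3 comparisons), 0 had a p under 0.05, where 5 against 5 libraries can reach 0.00794. The smallest was 0.0873, for COL7A1/COL17A1 in HP against CON (difference 0.49 on the log2 scale; 0.699 adjusted over 15). PLEC/ITGB4 differed by 0.72 in HG against CON (exact p 0.0952, adjusted 0.699). COL17A1/ITGB4 differed by 0.31 in HP and 0.17 in HG (exact p 0.302 and 0.603, adjusted 0.699 and 0.866).

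**Figure D4:**
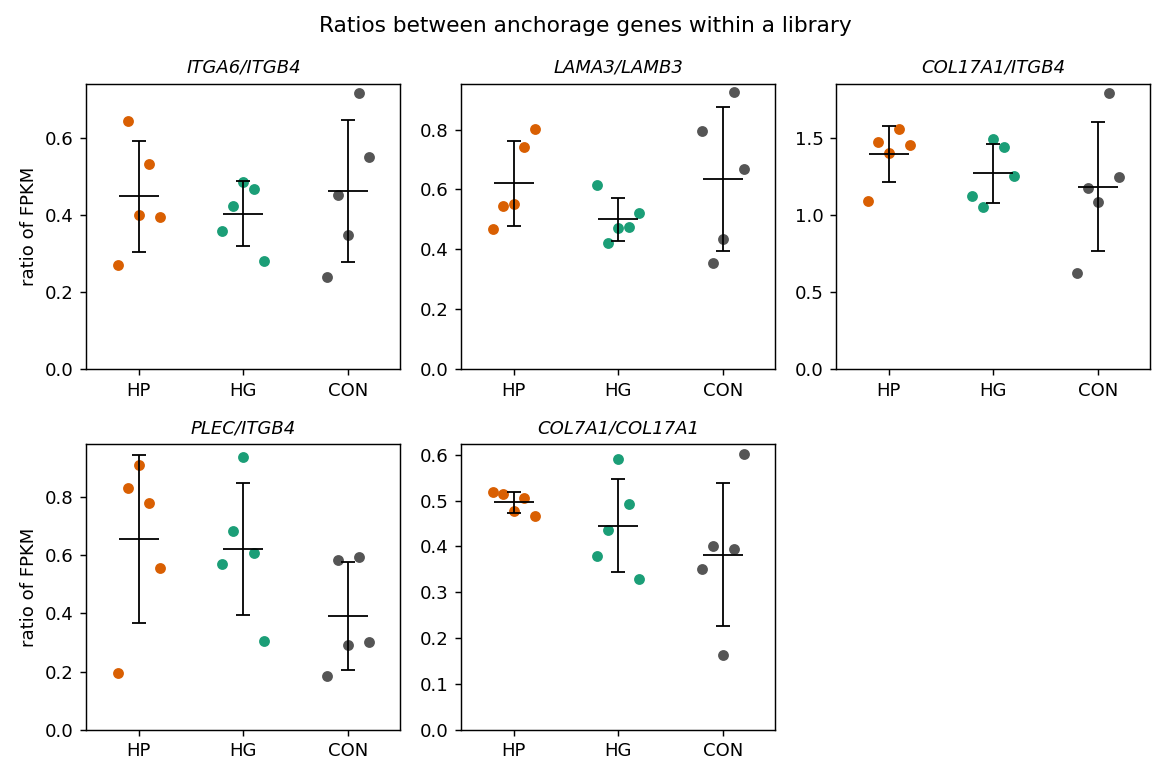
Ratios of FPKM between 2 anchorage genes in each library (points), with the mean and SD of 5 libraries (bars), for HP, HG and CON. The groups overlap in all 5 ratios, and the HP libraries span 0.466 to 0.519 for COL7A1/COL17A1.

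Other genes of cell anchorage, of the basement membrane and of matrix turnover were read from fixed lists. In the mean of HP and HG against CON, 1 of 16 anchorage partners, 4 of 24 other basement membrane genes and 1 of 22 matrix remodelling genes were higher by limma at an adjusted p under 0.05, and 0 were lower, where 8.05% of all genes were higher. The shares of the partners and of matrix remodelling genes were below that of all genes. Median log2 differences were 0.39, 0.53 and 0.23, beside 0.17 over all genes tested. In HP against CON and in HG against CON, 0 were called in each list. In the diets' mean, leaving out CON1, CON3, CON5, HG2, HP3 or HP5 singly left 0 of all genes called, as did the median-ratio factor in the model. The calls described below, EGFR included, did not hold in those fits.

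Among the partners, TLN1 (talin, which links integrins to actin) rose, with 18.4 ± 3.25 FPKM in HP, 23.5 ± 7.11 in HG and 13.1 ± 4.21 in CON (adjusted p 0.0499). ITGB1, the β1 integrin subunit, was 33.6 ± 7.34 in HP, 36.5 ± 7.58 in HG and 21.7 ± 9.87 in CON (adjusted p 0.0512). TNS1, VCL and TLN1 are also abundant in smooth muscle, whose markers were high in HP5, HG2, HG3 and CON1. CD9, a tetraspanin like CD151, had the opposite direction, with 553.6 ± 80.5 in HP, 611.8 ± 81.2 in HG and 740.6 ± 91.1 in CON (log2 difference -0.35 ± 0.123, adjusted p 0.067).

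Of the basal keratinocyte markers, 1 of 8 tested was higher in the mean of HP and HG against CON at an adjusted p under 0.05, and 7 of 8 had a positive difference, with a median of 0.40 beside 0.17 over all genes. EGFR, a growth factor receptor, was the one that rose, with 19.8 ± 8.74 FPKM in HP, 16.9 ± 3.32 in HG and 7.52 ± 6.28 in CON (log2 difference 1.44 ± 0.434, limma adjusted p 0.049). The keratins whose filaments the plakins bind did not pass. KRT5 was 1248 ± 468 FPKM in HP, 1512 ± 398 in HG and 1523 ± 500.3 in CON, and KRT14 was 1021 ± 620.4, 966 ± 499.9 and 814 ± 202 in the same order (log2 difference of the diets' mean -0.16 ± 0.235 and 0.13 ± 0.353, limma adjusted p 0.656 and 0.817). Both can share reads with close keratin relatives. TP63, a transcription factor of basal keratinocytes, was 20.9 ± 5.61 in HP, 19.2 ± 3.56 in HG and 11.8 ± 5.73 in CON (adjusted p 0.0627).

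Of the basement membrane genes that rose, COL4A6 and COL4A5 encode the collagen IV chains that lie together under stratified epithelia. COL4A6 was 4.35 ± 1.16 FPKM in HP, 4.02 ± 0.564 in HG and 1.85 ± 1.26 in CON (log2 difference 0.96 ± 0.223, limma adjusted p 0.0382). COL4A5 was 11.1 ± 2.55, 9.94 ± 1.99 and 6.7 ± 2.39 in the same order (0.62 ± 0.19, 0.0499). NID2, a nidogen that joins laminin to collagen IV, was 3.58 ± 0.601 in HP, 4.13 ± 1.57 in HG and 2.02 ± 0.677 in CON (0.68 ± 0.179, 0.0392). The heparan sulfate proteoglycan gene AGRN was 14.4 ± 2.55, 16.9 ± 0.745 and 8.6 ± 5.62 (1.03 ± 0.303, 0.0456).

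HSPG2 (perlecan) was 71.4 ± 15.5 FPKM in HP, 76.9 ± 17.2 in HG and 43.8 ± 25.7 in CON (adjusted p 0.0512). All 24 basement membrane genes tested had a positive log2 difference in the diets' mean, as had 69.7% of all genes. Endothelium and fibroblasts also make this matrix. The summed FPKM of 11 fibroblast markers was 1007 to 1756 in HP, 1168 to 1979 in HG and 698 to 1237 in CON, and that of 10 endothelial markers 91 to 169.9 in HP, 97.5 to 144 in HG and 69.4 to 109.8 in CON. Their part in these differences was not tested.

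Among genes of matrix turnover, MMP15, a membrane-bound metalloproteinase, rose, with 12.3 ± 4.71 FPKM in HP, 14.6 ± 3.89 in HG and 6.66 ± 1.66 in CON (log2 difference 0.87 ± 0.231, limma adjusted p 0.0393). MMP14 was 31.5 ± 9.07 in HP, 31.7 ± 3.42 in HG and 21.8 ± 5.93 in CON (adjusted p 0.0586). TIMP3, an inhibitor of metalloproteinases bound to the matrix, was 22.7 ± 5.96 in HP, 29.3 ± 10.2 in HG and 12.8 ± 9.34 in CON (adjusted p 0.0518). ADAM17, which sheds the ectodomain of collagen XVII in human keratinocytes, was 12.1 ± 1.74 in HP, 11.6 ± 0.571 in HG and 9.3 ± 2.46 in CON (adjusted p 0.0959). Of the 22 genes tested, 18 had a positive log2 difference in the diets' mean and 4 a negative one. The lowest was -0.88, and 1 gene was lower at a limma unadjusted p under 0.05.

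**Figure D5:**
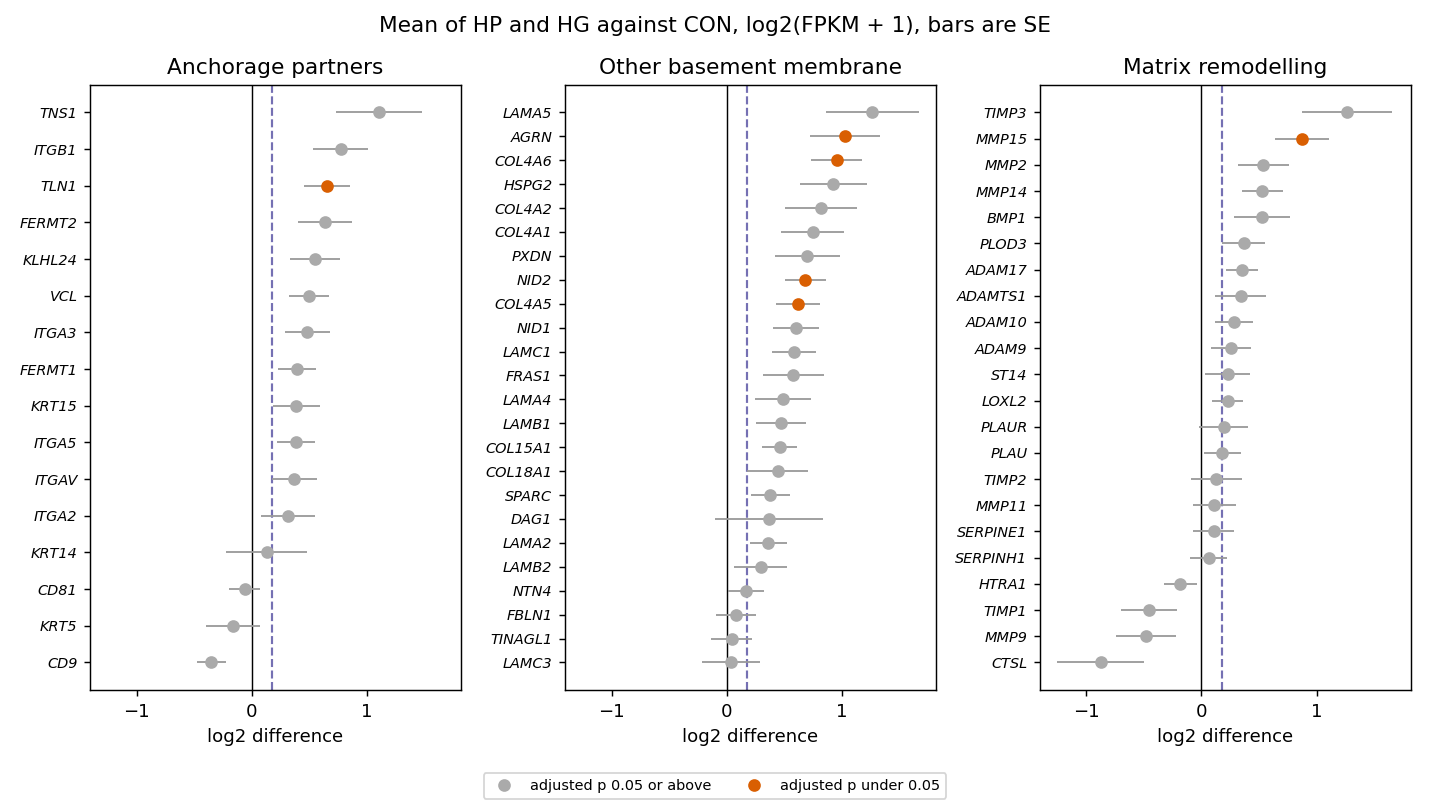
Log2 difference of log2(FPKM + 1) with its SE for genes of 3 fixed lists, in the mean of HP and HG against CON. Orange points are the 6 genes with an adjusted p under 0.05, and the dashed line is the median of all genes tested, 0.17.

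The genes most like the members were ranked by Pearson r with the mean of the members' standardised log2 values over 15 libraries, among 6926 other named genes averaging 5 FPKM or more. They were TOP3B (r 0.98), a topoisomerase, FAM73B (0.97), ASXL1 (0.97), a chromatin regulator, DDR1 (0.97), a receptor for collagen, BSDC1 (0.97) and NOTCH3 (0.97). After median-ratio scaling they were TOP3B (0.96), TSN (0.94), CEP170B (0.94), ASXL1 (0.93), FAM73B (0.93) and BSDC1 (0.93). All share the libraries and, before scaling, the low factors of CON1 and CON3.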

How the data were processed

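RNA-seq values of 15 ruminal epithelium libraries came as FPKM in files that the authors deposited, 1 per library, per the file headers. The submitters' processing notes list HISAT2 and StringTie 1.3.4d, without saying what each did; no source used here states a build, annotation or filter. Depth cannot be read from FPKM, so counting error is unknown, and very abundant genes in a library lower the values of its other genes. Differences in log2(FPKM + 1) were fitted with limma 3.58.1 (R 4.3.3; trend and robust options) over all 15 libraries. The fit covered 13084 genes that reached 1 FPKM in 5 or more libraries, and p-values were adjusted over all of them (Benjamini-Hochberg). Ratios were tested by exact permutation of libraries (scipy 1.17.1). The fit was tested on simulated data with independent noise for each gene. Those data had no factor shared by all genes of a library, so they cannot show how the fit handles one. Pseudocount, filter, scaling, weights, covariates, a replicate block and libraries left out were the alternatives. Members, lists and libraries left out were chosen with earlier results of these data known. Genes named beside the members were, for each list and comparison, the 4 with the smallest p and those called, though only some are described. A planned gene and its ratio are not reported here. KRT5, KRT14, KRT15, TP63 and EGFR, markers of the tissue, were named after their values were seen. RefSeq (ARS-UI_Ramb_v3.0) served for names only and gave a symbol to 320 of the 1933 genes listed by number.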

Additional observations from a re-analysis of the deposited data

Results flagged for a closer look

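In 4 of 96 groups of 5 libraries, 1 library stood far from the rest, where chance flags about 5 in 100. LAMB3 was 33.2 FPKM in CON2, against 10.7 to 14.1 in the other CON libraries. DST was 51.9 FPKM in HG3, against 42.6 to 44.3 in the other HG libraries. FERMT1, kindlin-1, which activates integrins in keratinocytes, was 10.1 FPKM in HP3, against 5.31 to 6.54 in the other HP libraries. CD9 was 471 FPKM in HG1, against 616 to 673 in the other HG libraries.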

How the results depend on the processing

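Over 28 alternatives the members' median log2 difference stayed between 0.32 and 0.88 in HP against CON. It stayed between 0.41 and 0.92 in HG against CON, between -0.096 and 0.058 in HP against HG, and, over 27 alternatives, between 0.39 and 0.92 in the diets' mean, which has no fit of only the libraries compared. The number of genes called moved far more. In the diets' mean it was 1282, and 2 with no filter, 628 under quantile normalization, 2 with the smooth muscle score as a covariate, 0 with the median-ratio factor in the model, 0 without CON1 and CON3, 4063 without CON2 and HP1, 1 without the 4 libraries rich in smooth muscle markers (chosen after seeing the data) and 0 to 3520 without 1 library. In HP against CON it was 2, and 1 with a pseudocount of 0.1, with no filter or without those 4 libraries, 7 in a fit of only the 10 libraries compared, 0 with array quality weights, with the factor in the model or without CON1 and CON3, 3163 without CON2 and HP1 and 0 to 2171 without 1 library. In HG against CON it was 0 (at an unadjusted p under 0.05, 2855 were higher and 720 lower, against 1606 and 1675 once scaled by median ratios and 1518 and 1576 once quantile normalized), and 1 with a filter at 5 FPKM or in a fit of only 10 libraries, 868 with array quality weights, 2563 without CON2 and HP1 and 0 to 2218 without 1 library. In HP against HG it was 0, 1 without the 4 libraries and 0 to 1 without 1 library. The cause was not tested. CON2 and HP1 were left out together as in an earlier look at these data, and their smooth muscle markers were low.

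The libraries share only a number across groups. Same-numbered libraries had a correlation over 0.1 in 3 of 15 pairs and 3 of 15 correlated best with their own number. With it as a replicate block, 1 gene was called in HP against CON and 1 in the diets' mean, and members called fell to 0 there.

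Without single libraries being left out, these signs changed. With the factor in the model, ITGA6 was -0.052 in HP against CON and -0.022 in the diets' mean, and LAMA3 and DST were -0.026 and -0.025 in HP against HG. Also in HP against HG, LAMA3 was -0.011 under median-ratio scaling and -0.060 without the 4 libraries, COL17A1 and ITGA6 were 0.060 and 0.011 under quantile normalization, COL17A1, ITGA6 and PLEC were 0.033, 0.011 and 0.00928 with array quality weights, and ITGA6 and PLEC were 0.058 and 0.15 without CON2 and HP1. Without CON2 and HP1 the log2 ratios ITGA6/ITGB4 and LAMA3/LAMB3 were 0.18 and -0.065 in HP against CON, and PLEC/ITGB4 was 0.38 in HP against HG. Without CON1 and CON3, COL17A1/ITGB4 and COL7A1/COL17A1 were -0.13 and -0.064 in HG against CON.

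Leaving out 1 library also turned signs in HP against HG, where COL17A1 ran from -0.096 to 0.13, LAMA3 from -0.088 to 0.068, ITGA6 from -0.086 to 0.058, ITGB4 from -0.22 to 0.015, PLEC from -0.36 to 0.15 and DST from -0.039 to 0.16. The log2 ratio ITGA6/ITGB4 ran from -0.22 to 0.18 in HP against CON, from -0.34 to 0.061 in HG against CON and from -0.026 to 0.29 in HP against HG. LAMA3/LAMB3 ran from -0.16 to 0.19 in HP against CON, COL17A1/ITGB4 from -0.042 to 0.34 in HG against CON and PLEC/ITGB4 from -0.25 to 0.38 in HP against HG.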
